A study of Mus musculus with 4 samples.

Results

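The genes described here were 9 components and regulators of the complement system, C1qa, C1qb, C1qc, C1ra, C1s1, C4b, C3, Cfb and Cd55. They were found by symbol among the 55401 genes counted in each library, through the Ensembl gene identifier without its version, and all 9 had 1 entry each. Of the 9, only Cd55 is a regulator, and the others are components. The study asked whether melatonin (MLT), a hormone with antioxidant activity, limits kidney injury in sepsis caused by cecal ligation and puncture (CLP), in which the cecum is tied and punctured so that gut bacteria leak into the abdomen. RNA-seq was available from 4 libraries, 1 each from the kidney and the heart of a CLP group and of a CLP + MLT group. Male C57BL/6 mice aged 8 weeks were used for the kidney experiment. The CLP + MLT group drank MLT at 25 μg/ml, dissolved with 0.1% ethanol, for 14 days before CLP on day 15, and kidneys were taken 24 h after surgery.

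Both groups had CLP, so the comparison was between septic mice with and without MLT, and sham libraries were not used here. The sources used here state neither the dose of MLT nor the time of collection for the hearts. The labels write the MLT group as CLP+MLT4 in the titles, and the number is not explained. The number of mice behind a library is not stated either. With 1 library per group, no difference could be set against the spread between mice. Therefore each ratio was given with its 95% counting interval. A gene was counted as past the thresholds when it differed by at least 1.5-fold and an exact binomial test on the reads gave a p of at most 0.01. That test compared the libraries, not the conditions, so no p-value is given.

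Between 15883057 and 22927905 reads per library fell on genes. The mitochondrial genome took a larger share of them in the CLP + MLT libraries, with 14.8% and 24.2% in kidney and 31.6% and 36.0% in heart. Kidney tubule markers were abundant in the kidney libraries and cardiomyocyte markers in the heart libraries, which fits the labelled tissues. The heart libraries also held kidney tubule markers, at a median of 1.58% of the kidney level in CLP and 3.93% in CLP + MLT over 6 genes. How far this touched the heart values of complement genes was not tested.

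Complement is a cascade of blood and tissue proteins that marks microbes and damaged cells for removal. C1q recognises antibody and altered surfaces. Of its partner proteases C1r and C1s, C1s then cleaves C4 and C2, which leads to the cleavage of C3. Factor B (Cfb) amplifies C3 cleavage on the alternative pathway, and CD55 (Cd55) takes the C3-cleaving enzymes apart on the body's own cells. The liver makes most of the C3 in plasma, while C1q comes mainly from macrophages. Injured kidney tubules are also known to make C3.

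The bases just before the start of C3 and of C1qb are shown because C3 had the most reads of the 9 genes in the kidney and was lower in the CLP + MLT library, while C1qb is an example of a C1q chain. Of the 9 genes, 6 matched a promoter table from RefSeq (GRCm38.p6), and those of C1qa, C4b and Cfb were not matched. The stretch of C3 is chr17:57228137-57228386 and that of C1qb is chr4:136886201-136886450. Both are on the minus strand, are written 5′ to 3′ and end at the base before the RefSeq start site. In C3 the capitals mark matches to TTGCNNAA (C/EBP) and GGGNNNNNCC (NF-kB), and in C1qb they mark GAGGAA (the core bound by PU.1, a macrophage transcription factor). C1qb also holds the NF-kB letters at bases 191 to 181 before the start, left in lower case.
C3: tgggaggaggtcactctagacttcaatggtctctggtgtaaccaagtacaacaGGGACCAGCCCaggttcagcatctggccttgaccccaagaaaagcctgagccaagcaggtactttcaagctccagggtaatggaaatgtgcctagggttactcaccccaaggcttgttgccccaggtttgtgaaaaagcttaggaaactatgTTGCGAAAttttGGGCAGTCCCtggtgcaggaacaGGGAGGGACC
C1qb: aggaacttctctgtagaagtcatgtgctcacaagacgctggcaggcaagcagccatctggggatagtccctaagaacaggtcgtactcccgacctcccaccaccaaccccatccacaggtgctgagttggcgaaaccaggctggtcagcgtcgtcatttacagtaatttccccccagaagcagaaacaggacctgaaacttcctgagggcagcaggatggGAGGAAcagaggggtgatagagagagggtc

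The C/EBP match of C3 lay at bases 45 to 38 before the start. Its NF-kB letters were found at bases 197 to 187, where matches on the plus and minus strands overlap, at bases 33 to 24, which match on both strands, and at bases 10 to 1. The PU.1 core of C1qb lay at bases 30 to 25, and C1qc had a PU.1 core on the opposite strand at bases 193 to 188. These letters are common. Over all 32851 promoters of the table, searched on both strands in the 250 bases before the start, 9.56% held the C/EBP letters, 45.8% the NF-kB letters and 23.3% the PU.1 core. No promoter of the 6 matched genes held TATAAA, TTCNNNGAA (STAT) or GAAANNGAAA (IRF) in these bases. A match is a description of letters and not a measured site.

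C3 and C4b were the complement genes with the clearest difference in the kidney. Both were lower in the CLP + MLT kidney than in the CLP kidney, and both intervals lay entirely beyond a 1.5-fold lower level. In the heart C4b was also lower in the CLP + MLT library, whereas C3 differed by less than 1.5-fold.

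C3 (ENSMUSG00000024164.15, chr17:57203970-57228136, minus strand, GRCm38) encodes the central protein of the cascade. It had 7284 counts in the CLP kidney and 1536 in the CLP + MLT kidney, and 2286 and 1680 counts in the CLP and CLP + MLT hearts. On libraries scaled for size and composition (TMM, a scaling that uses the bulk of the genes), the levels as CPM (counts relative to the size of the library) were 297 and 99.8 in kidney and 140 and 104 in heart. The CLP kidney stood above the other 3 libraries. In kidney the CLP + MLT library thus had a log2 ratio to the CLP library of −1.57 (−1.65 to −1.49), a 2.98-fold lower level, and 1.92% of the kidney genes had a lower ratio. In heart it was −0.43 (−0.53 to −0.34), which did not pass the fold threshold. In these whole-tissue libraries, fewer cells of a type and less RNA per cell cannot be told apart.

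C4b (ENSMUSG00000073418.4, chr17:34728380-34743882, minus strand) encodes C4, which C1s cleaves. It had 251 and 45 counts in the CLP and CLP + MLT kidneys, and 1509 and 733 counts in the hearts. The levels were 10.2 and 2.92 CPM in kidney and 92.6 and 45.3 CPM in heart. Thus the CLP + MLT library was the lower one in each tissue, and both heart libraries were above both kidney libraries. The log2 ratio was −1.80 in kidney (−2.30 to −1.35), or 3.48-fold lower, and −1.03 in heart (−1.16 to −0.90), or 2.04-fold lower. Of all genes, 1.46% in kidney and 4.90% in heart had a lower ratio. C4b shares 22.7% of its 75-base stretches with its near copy C4a, and single reads of that length lying there could not be assigned to 1 of them. C4a itself had 49 and 52 counts in kidney, with a log2 ratio of 0.75 (0.17 to 1.35), opposite in sign to that of C4b. In heart it had 19 and 13 counts, with −0.52 (−1.68 to 0.56). It did not pass the thresholds in either tissue.

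Cfb (ENSMUSG00000090231.10, chr17:34856374-34862518, minus strand), the protease of the alternative pathway, was close to the limit of these libraries. It had 29 and 11 counts in kidney and 0 and 2 in heart. Its kidney log2 ratio was −0.71, with an interval of −1.88 to 0.32 that includes no difference. In the heart it did not reach the mean of 10 counts needed for a ratio, and 3 counts would be 0.184 CPM in the CLP library. In the annotation, 79.5% of its exon bases are also covered by Gm20547, a readthrough transcript on the same strand that had 0 counts in all 4 libraries. Therefore most reads of Cfb may have been left uncounted as ambiguous, and its low count does not give its level.

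**Figure D1:**
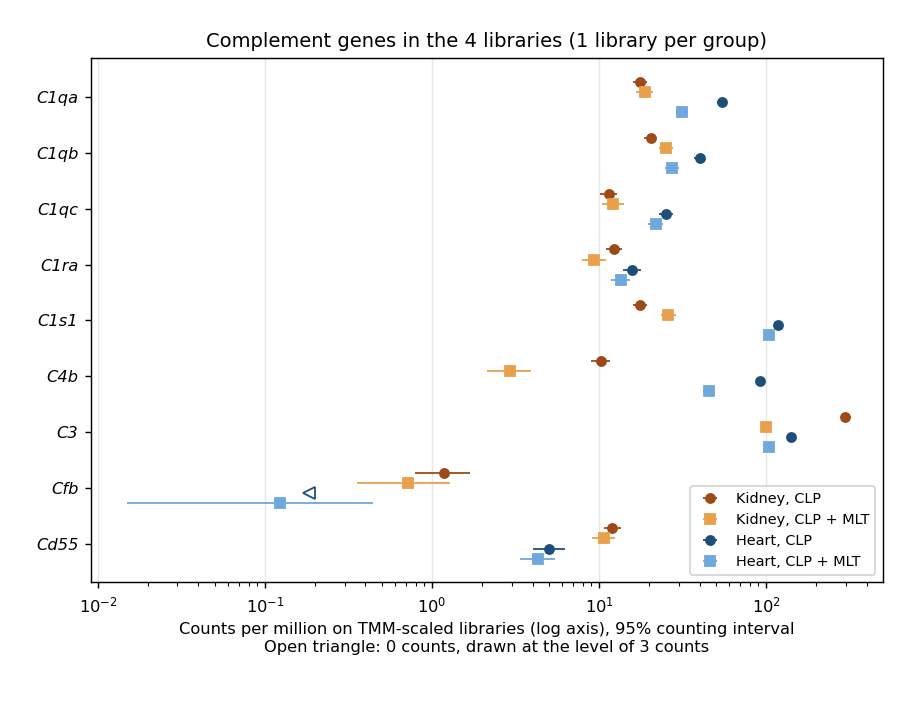
Levels in CPM (log axis, TMM-scaled within each tissue) of the 9 complement genes in the 4 libraries, with bars for the 95% counting interval. C3 stood at 297 CPM in the CLP kidney and at 99.8 to 140 CPM in the other 3 libraries. C4b, C1s1, C1ra and the C1q chains were higher in both hearts than in both kidneys, although for C1ra and C1qb some intervals overlapped between the tissues. The tissues were scaled separately here, so kidney and heart levels are not on a common scale. With all 4 libraries scaled together, the CLP + MLT heart was 1.38-fold above the CLP + MLT kidney for C1qb and 1.33-fold for C3.

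The 3 chains of C1q did not move with C3 and C4b in the kidney. None of them passed the thresholds there. Each had a ratio slightly above 0, although scaling by library size only put C1qa at −0.10 and C1qc at −0.11. In the heart all 3 had ratios below 0, with C1qa past the thresholds and C1qb just short of the fold threshold.

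C1qa, C1qc and C1qb lie side by side on chromosome 4, all on the minus strand, with 2851 bases between C1qa and C1qc and 3616 between C1qc and C1qb. C1qa (ENSMUSG00000036887.5, chr4:136895917-136898803) had 433 and 290 counts in the CLP and CLP + MLT kidneys and 888 and 508 in the hearts, or 17.7, 18.8, 54.5 and 31.4 CPM. The kidney libraries did not differ beyond counting error, with a log2 ratio of 0.09 (−0.13 to 0.31). The heart log2 ratio was −0.80 (−0.96 to −0.64), a 1.74-fold lower level in CLP + MLT, and 7.90% of the heart genes had a lower ratio. C1qb (ENSMUSG00000036905.8, chr4:136880129-136886187) had 499 and 389 counts in kidney and 652 and 443 in heart, or 20.3, 25.3, 40.0 and 27.4 CPM. Its ratios had opposite signs in the tissues, at 0.31 (0.12 to 0.51) in kidney and −0.55 (−0.73 to −0.37) in heart, and neither passed the fold threshold. C1qc (ENSMUSG00000036896.5, chr4:136889804-136893065) had 280 and 187 counts in kidney and 410 and 353 in heart. Its log2 ratio was 0.09 (−0.19 to 0.36) in kidney and −0.21 (−0.42 to 0.00) in heart, and both intervals include 0 or reach it.

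The proteins of the 3 chains are assembled together in equal numbers, so the make-up of the C1q reads was compared within each library. In the hearts C1qa made up 45.5% of the C1q reads in CLP (43.3 to 47.8) and 39.0% in CLP + MLT (36.3 to 41.7). C1qc made up 21.0% (19.2 to 22.9) and 27.1% (24.7 to 29.6). The exact 95% binomial intervals of these shares did not overlap, so the chains differed unequally between the heart libraries. In the kidneys C1qa made up 35.7% (33.0 to 38.5) and 33.5% (30.4 to 36.7), and the intervals of all 3 chains overlapped. Summed over the chains, the log2 ratio was 0.19 in kidney (0.06 to 0.31) and −0.57 in heart (−0.67 to −0.47).

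Since macrophages are the main source of C1q, their markers were set beside it. Of 12 macrophage and monocyte markers, 10 passed the filter in the kidney and 12 in the heart. In the heart, where C1qa was lower, Adgre1, Aif1 and Lyz2 were higher past the thresholds and Mrc1, Fcgr1, Cd163 and Trem2 were lower. The markers therefore did not go one way there. Adgre1, which encodes F4/80, had 104 and 305 heart counts, and Mrc1, which encodes the mannose receptor of resident macrophages, had 407 and 220. Their log2 ratios were 1.56 and −0.88. In the kidney Csf1r, Aif1 and Lyz2 were higher and Ctss was lower, and Csf1r, the receptor for macrophage colony-stimulating factor, went from 1140 to 1569 counts with a log2 ratio of 1.13. The summed level of the 12 markers was 168 and 263 CPM in the CLP and CLP + MLT kidneys and 229 and 307 CPM in the hearts. In heart most of that difference was in Lyz2, at 61.2 and 134 CPM, and the median log2 ratio of the list was 0.04, with 6 markers above 0 and 6 below. In kidney the difference was largest in Lyz2, at 22.5 and 79.2 CPM, and in Csf1r, at 46.5 and 102 CPM. The kidney median was 0.30, with 7 above 0 and 3 below. These markers, apart from Adgre1, Csf1r and Mrc1, were named after their values were seen, and their part in the C1q values was not tested.

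**Figure D2:**
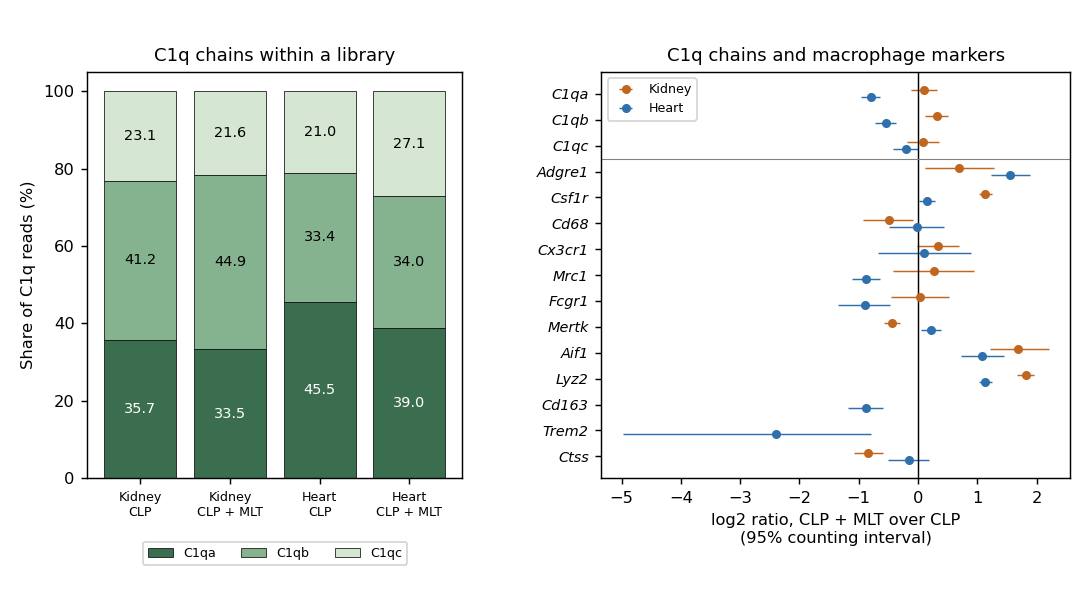
Left, the share of each chain among the C1q reads of a library (%), as stacked bars. Right, the log2 ratio (CLP + MLT to CLP) with its 95% counting interval for the C1q chains and the macrophage markers that passed the filter, where the heart markers lie on both sides of 0, from Trem2 at −2.39 to Adgre1 at 1.56.

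C1ra and C1s1, which encode the proteases of the C1 complex, did not pass the thresholds in either tissue, although C1s1 came close in kidney. C1ra (ENSMUSG00000055172.10, chr6:124512405-124523443, plus strand) had 302 and 144 counts in the CLP and CLP + MLT kidneys and 258 and 218 in the hearts, or 12.3, 9.35, 15.8 and 13.5 CPM. The log2 ratio was −0.40 in kidney (−0.69 to −0.11) and −0.23 in heart (−0.50 to 0.03). C1s1 (ENSMUSG00000038521.17, chr6:124530345-124542359, minus strand) had 430 and 401 counts in kidney and 1933 and 1680 in heart, or 17.5, 26.0, 119 and 104 CPM. In kidney its level was 1.49-fold higher in CLP + MLT, just below the 1.5-fold threshold, with a log2 ratio of 0.57 (0.37 to 0.77), and in heart the log2 ratio was −0.19 (−0.29 to −0.10). Therefore the 2 proteases, which lie 6901 bases apart, had kidney ratios of opposite sign. Per length of exon, C1s1 was 1.36 times C1ra in the CLP kidney and 2.65 times in the CLP + MLT kidney, but 7.14 and 7.34 times in the hearts.

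Both proteases have limits in the counting. C1ra shares 42.4% of its 75-base stretches with other genes, mainly its copy C1rb, and C1s1 shares 24.8% with C1s2 and with Gm16567, an antisense gene that covers 18.4% of its exon bases. Gm16567 had 119 and 116 counts in kidney and 660 and 630 in heart, so its level followed that of C1s1 between the tissues. In the annotation used here, all 576 exon bases of Gm16567 lie in exons of C1s1. Counting without strand would leave such reads ambiguous, yet Gm16567 had counts in every library. The sources used here state neither the strand setting nor the annotation of the counting, and this was not tested.

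Cd55 (ENSMUSG00000026399.12, chr1:130439027-130462744, minus strand), the membrane regulator, did not differ beyond counting error in either tissue. It had 295 and 164 counts in the CLP and CLP + MLT kidneys and 82 and 70 in the hearts, or 12.0, 10.7, 5.03 and 4.32 CPM. The log2 ratio was −0.17 in kidney (−0.46 to 0.11) and −0.22 in heart (−0.70 to 0.26). A 1.5-fold lower level in the heart lies inside that interval and is not excluded.

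The calls of the 9 complement genes were set beside those over all genes. In the kidney all 9 passed the filter of a mean of 10 counts over the 2 libraries, and 2 of 9, C3 and C4b, were past the thresholds, both lower. With upper quartile scaling C1s1 was added as 1 higher call, and with library size only C1ra was added as a lower one. The background was high, as 15.4% of the 16932 kidney genes were past them, 7.80% higher and 7.58% lower. In the heart 8 of 9 passed the filter, and 2 of 8, C4b and C1qa, were past the thresholds, both lower, where 15.9% of the 15871 heart genes were past them, 7.15% higher and 8.78% lower. With 2 calls in each tissue, no statement on the genes as a set was drawn from these counts. The median log2 ratio of the complement genes was −0.17 in kidney and −0.33 in heart, beside 0.0029 and 0.0023 over all genes. In kidney 4 of them had ratios above 0 and 5 below, and in heart all 8 were below 0, while 50.3% of all kidney genes and 50.2% of all heart genes were above 0. Without Cfb, whose count does not give its level, the kidney median was −0.04, with 4 above 0 and 4 below. The thresholds include no variation between mice. At an assumed coefficient of variation of 0.4 the kidney calls of C3 and C4b were lost, and at 0.2 the heart calls of C4b and C1qa were lost.

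**Figure D3:**
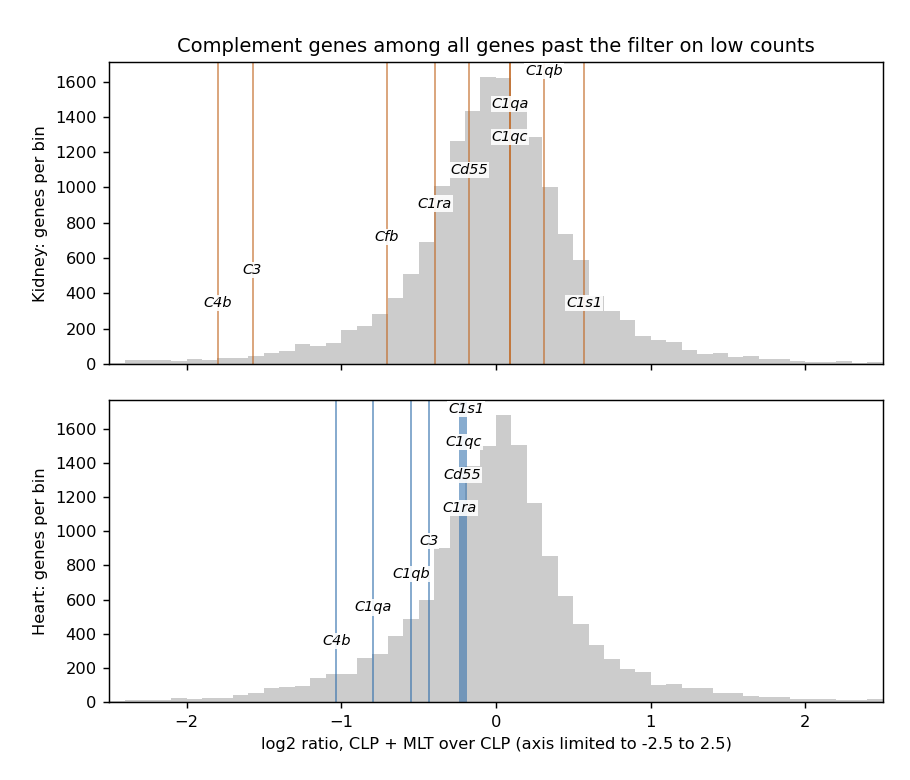
Histograms of the log2 ratio (CLP + MLT to CLP) for all genes past the filter on low counts, 16932 in kidney and 15871 in heart, with lines at the complement genes (9 in kidney, 8 in heart). In kidney C4b and C3 lie at −1.80 and −1.57, below the 5th percentile of −0.99, and in heart C4b at −1.03 lies next to the 5th percentile of −1.02.

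The ratios were then set side by side between the tissues. The heart minus kidney difference of the log2 ratio was 1.14 for C3 (counting SE 0.06) and 0.77 for C4b (SE 0.24), for which the kidney ratio was the lower one. It was −0.89 for C1qa (SE 0.14), −0.86 for C1qb (SE 0.13) and −0.76 for C1s1 (SE 0.11), for which the heart ratio was the lower one. For C1qc, C1ra and Cd55 the difference was −0.30 (SE 0.17), 0.16 (SE 0.20) and −0.04 (SE 0.27), each less than 2 times its counting error. Since a tissue had 1 library per group, none of these differences was tested.

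**Figure D4:**
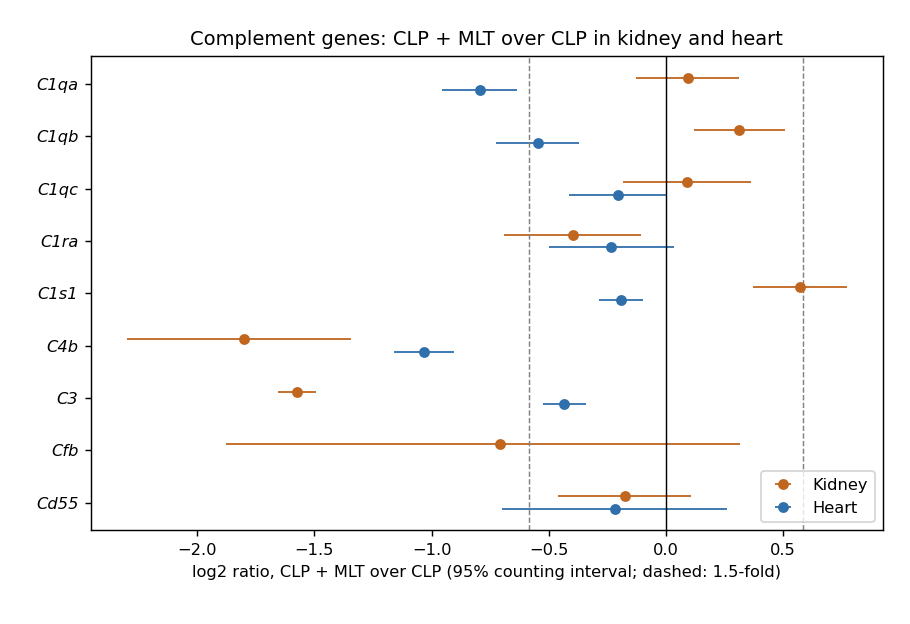
The log2 ratio (CLP + MLT to CLP) with its 95% counting interval for each complement gene in kidney and heart, where dashed lines mark a 1.5-fold difference. C3, C4b and Cfb lie left of the lower dashed line in kidney, Cfb with an interval that spans 0, and C4b and C1qa do so in heart, where Cfb is not shown.

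The tissues also differed in which complement genes led. Per length of exon, on the scale of CPM per kilobase, C3 was the highest of the 9 in the CLP kidney at 57.7, followed by C1qb at 18.7 and C1qa at 17.0. In the CLP + MLT kidney C3 was at 19.4, next to C1qb at 23.2 and C1qa at 18.1. In the CLP heart C1qa led at 52.4, followed by C1s1 at 37.9, C1qb at 36.8 and C3 at 27.3. In the CLP + MLT heart C1s1 led at 33.2, followed by C1qa at 30.2, C1qb at 25.1 and C3 at 20.2. Leaving out Cfb, whose count does not give its level, Cd55 was the lowest in the hearts and C4b in the kidneys. Across the tissues, with all 4 libraries scaled together, the CLP heart was 11.1-fold higher than the CLP kidney for C4b and 8.33-fold higher for C1s1. It was 3.80-fold higher for C1qa, while C3 and Cd55 were 1.72-fold and 1.93-fold higher in the kidney. Of all reads on these 9 genes, C3 took 74.3% in the CLP kidney and 48.5% in the CLP + MLT kidney, but 28.5% and 29.5% in the hearts.

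Genes whose levels over the 4 libraries were most like those of C3, C1qa and Cd55 were named by the root mean square distance of their centred log2 CPM, among 13475 genes. For C3 they were Akr1b8, an aldo-keto reductase, at a distance of 0.07, Clu (clusterin) at 0.12 and Gm14964 at 0.13. For C1qa they were Arhgef37, Zfp992 and Gin1, at 0.07 to 0.09, and for Cd55 they were Arhgap5, Uchl5 and Habp4, at 0.01 to 0.02. These points are 4 libraries of 2 tissues, so the likeness is only a description.

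Beyond these genes, 47 other genes of the complement system were listed by role. In the kidney 29 of 47 passed the filter, and 9 were higher and 3 were lower past the thresholds, beside 7.80% and 7.58% of all kidney genes, with a median log2 ratio of 0.23. In the heart 26 of 47 passed, and 1 was higher and 5 were lower, beside 7.15% and 8.78% of all heart genes, with a median of −0.33. In each tissue 6 of the 47 had 0 counts in both libraries. The majority of higher calls in kidney depended on the settings. With scaling by library size only, the kidney calls were 7 higher and 6 lower, at a fold change of at least 2 they were 2 and 2, and at an assumed coefficient of variation of 0.2 they were 1 and 2.

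Among the recognition molecules and proteases, Masp1, a protease of the lectin pathway, was lower in both CLP + MLT libraries. It went from 84 to 12 counts in kidney, with a log2 ratio of −2.10 (−3.14 to −1.26), and from 423 to 266 in heart, with −0.66 (−0.89 to −0.43). It was the only 1 of 5 kidney and 5 heart genes of this role past the filter that passed the thresholds.

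Among the genes of the C2, C4, C5 and alternative pathway group, Cfp (properdin), which stabilises the C3-cleaving enzyme, was higher in the CLP + MLT kidney. It went from 176 to 239 counts, with a log2 ratio of 1.11 (0.83 to 1.40), and had 532 and 629 counts in heart, with 0.25 (0.08 to 0.42). C2, the partner of C4, had 183 and 92 kidney counts with a log2 ratio of −0.32 (−0.70 to 0.05), and 46.9% of its exon bases are covered by other genes. Hc (C5), with 5, 1, 1 and 7 counts in the CLP and CLP + MLT kidneys and hearts, and Cfd (factor D), with 10, 1, 2 and 12, did not pass the filter in either tissue.

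Terminal components form the membrane attack complex, and different ones passed the thresholds in the tissues. C8a and C8g were higher in the CLP + MLT kidney, where C8a went from 702 to 1000 counts with a log2 ratio of 1.18 (1.04 to 1.32) and C8g from 224 to 244 with 0.79 (0.53 to 1.06). C7 was lower in the CLP + MLT heart, going from 513 to 126 counts, with a log2 ratio of −2.01 (−2.31 to −1.73). In kidney C7 had 540 and 235 counts and a log2 ratio of −0.53 (−0.76 to −0.30), which did not pass, although with library size only it passed at −0.72. The remaining terminal components, named after their values were seen, had few reads. C8b had 0 counts in every library. In the CLP and CLP + MLT kidneys and hearts, C9 had 3, 0, 2 and 8 counts and C6 had 20, 7, 1 and 4.

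Clu, which encodes clusterin, an inhibitor of the terminal complex and a known marker of tubular injury, was the soluble regulator with the most kidney reads. It was lower in both CLP + MLT libraries, from 15072 to 2809 counts in kidney with a log2 ratio of −1.75 (−1.81 to −1.69), and from 5083 to 3080 in heart with −0.71 (−0.78 to −0.65). Cpn1, an anaphylatoxin-inactivating carboxypeptidase named after its values were seen, was the other soluble regulator that was lower past the thresholds in kidney, from 1446 to 560 counts. Serping1, the inhibitor of C1r and C1s, had a log2 ratio of 0.02 (−0.10 to 0.14) in kidney and −0.31 (−0.42 to −0.20) in heart. Cfi (factor I) had 60 and 22 kidney counts with a log2 ratio of −0.77 (−1.55 to −0.05), which did not pass the thresholds except with library size only, at −0.96, and it did not pass the filter in heart.

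Of the membrane regulators other than Cd55, Cd59a and Susd4 passed the thresholds in opposite directions in the tissues, and the difference was not tested. Cd59a, which blocks the membrane attack complex, was higher in the CLP + MLT kidney, from 1360 to 1451 counts with a log2 ratio of 0.77 (0.66 to 0.87), a call that was lost with library size only, at 0.57. It was lower in the CLP + MLT heart, from 2215 to 1404 counts with −0.65 (−0.75 to −0.55). Its close copy Cd59b went from 68 to 75 counts in kidney with 0.81 (0.32 to 1.31), which was also lost with library size only, at 0.61, and reads could be split between the copies. Susd4, a further inhibitor, went from 121 to 139 counts in kidney with 0.87 (0.51 to 1.24), and from 23 to 4 in heart. Cd46 and Cr1l, which help to inactivate C3b, had log2 ratios of 0.22 and −0.08 in kidney and −0.05 and 0.01 in heart, and neither passed the thresholds.

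Of the receptors, C3ar1, the receptor for the C3a fragment, was higher in both CLP + MLT libraries. It went from 107 to 132 counts in kidney, with a log2 ratio of 0.97 (0.60 to 1.36), and from 87 to 166 in heart, with 0.94 (0.56 to 1.33). Itgam and Itgb2, the chains of complement receptor CR3 on myeloid cells, were higher in the CLP + MLT kidney, with log2 ratios of 0.80 (0.51 to 1.09) and 0.81 (0.38 to 1.24). For Itgam, 68.7% of the exon bases are covered by Gm49368 on the same strand. C5ar1, the receptor for C5a, had log2 ratios of 0.08 (−0.50 to 0.64) in kidney and −0.41 (−1.06 to 0.22) in heart.

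**Figure D5:**
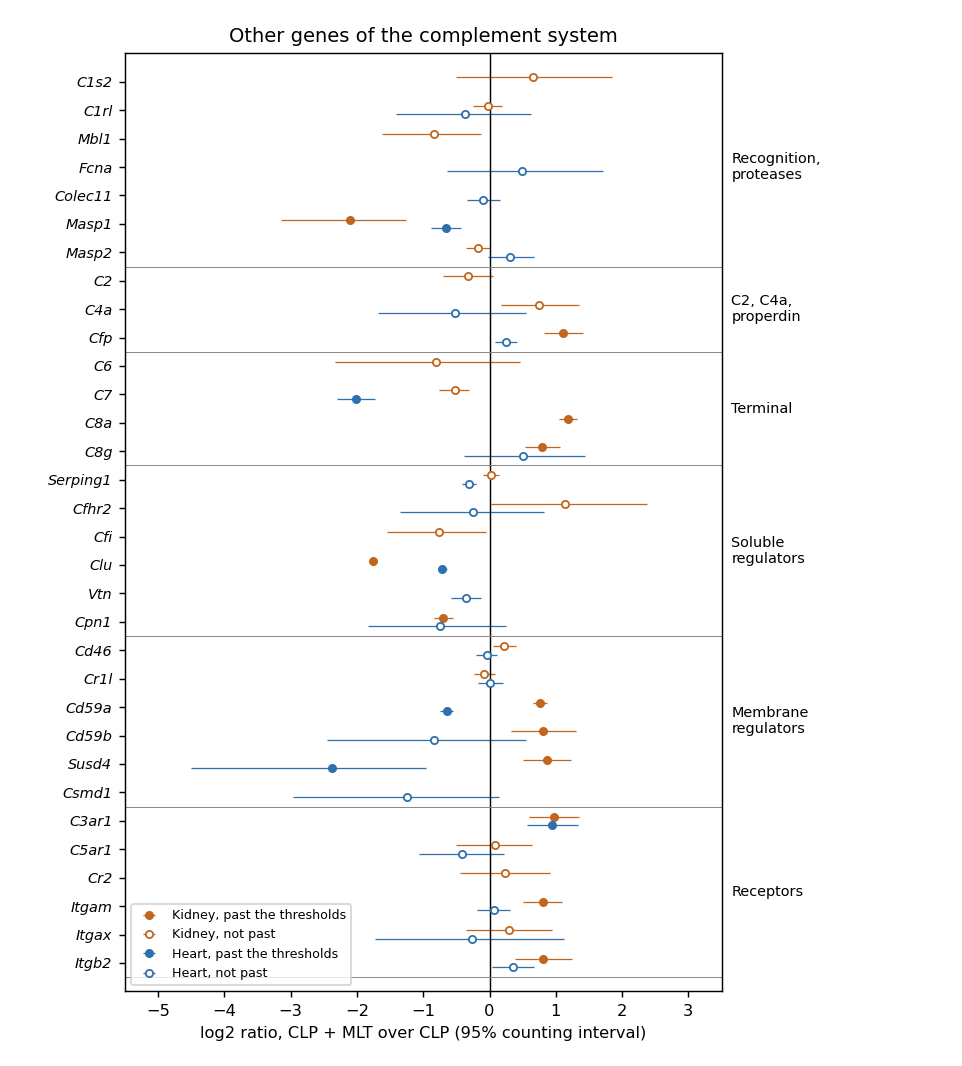
The log2 ratio (CLP + MLT to CLP) with its 95% counting interval for the other complement genes past the filter, apart from 1 that is not reported, grouped by role, with filled points for genes past the thresholds. Clu and Masp1 lie below 0 and C3ar1 lies above 0 in both tissues, while Cd59a lies at 0.77 in kidney and −0.65 in heart.

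Markers of other cell types that make complement proteins were set beside these results. Alb (albumin), which defines hepatocytes, had 114 and 71 counts in the kidneys, with a log2 ratio of −0.01, and 140 and 70 in the hearts, with −0.99. The summed level of 8 hepatocyte markers was 1160 and 670 CPM in kidney, with Ahsg at 0 counts in both kidney libraries, and 35.5 and 35.6 CPM in heart. Cyp2e1, which the kidney also expresses, made up most of the kidney sum, at 1040 and 554 CPM, and in heart it had 229 and 380 counts. The 7 hepatocyte markers past the filter in kidney had a median log2 ratio of 0.06, with 4 above 0 and 3 below. Past the thresholds there, 2 were higher and 1, Cyp2e1, was lower, beside 7.80% and 7.58% of all kidney genes. In heart 6 of the 7 hepatocyte markers past the filter had ratios below 0, with a median of −0.93. Alb, Ahsg and Apoh were lower past the thresholds, beside 8.78% of all heart genes. Cyp2e1 was higher past them, with a log2 ratio of 0.74 (0.50 to 0.98), beside 7.15% of all heart genes. Ahsg and Apoh were named after their values were seen. Fibroblast markers, of which 8 of 8 passed the filter in heart, had ratios below 0 for 7 and above 0 for 1. Only Col1a1, named after its values were seen, passed the thresholds there, and the summed level was 645 and 509 CPM in heart and 197 and 182 CPM in kidney. Neutrophil markers had summed levels of 23.8 and 16.3 CPM in kidney and 55.0 and 38.9 CPM in heart, with 3 of 7 and 3 of 6 markers past the filter lower past the thresholds, beside 7.58% and 8.78% of all genes. The part of these cell types in the complement values was not tested.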

How the data were processed

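RNA-seq was made by the authors from kidney and heart of CLP and CLP + MLT mice, 1 library per group. The deposited files hold raw read counts per gene without normalization, which the authors obtained after alignment to mm10. HISAT2 2.1.0 and HTSeq are named in the submitters' processing notes. For the counting, its annotation and strand setting were not given in the sources used here. The 5 totals at the end of each file were left out of library sizes, and reads on no gene made up 29.6% to 37.7% of a library.

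Libraries were scaled within a tissue by TMM in edgeR 4.0.16 (R 4.3.3), with DESeq2 1.42.0 size factors as an alternative. A gene was kept in a tissue when its 2 libraries averaged 10 counts or more. The log2 ratio used a prior count of 0.5. The fold threshold of 1.5 and p threshold of 0.01 follow the study's methods, and with 1 library per group no dispersion could be estimated. Intervals (95%, Clopper-Pearson for ratios and shares, exact Poisson for levels) and the floor of 3 counts cover counting error only, because no variation between mice enters them. PCR duplicates are not independent molecules, so where they are present the intervals may be too narrow even for counting error. Values were computed in Python 3.11.15 with scipy 1.17.1. Exon lengths, positions and shared stretches were taken from GENCODE M21, and symbols were matched for 55141 of 55401 identifiers. The procedure was tested on simulated counts that held counting error only, so that test could not address variation between mice.

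The value of 1 listed gene, which enters the counts of its list, is not reported here. The members and gene lists were chosen with earlier results of these data known. The rule for named genes took all 9 members, fixed regulators and receptors, up to 10 listed genes past the thresholds per tissue averaging 20 counts or more, and up to 3 genes of each marker list. Alternatives were other scalings, filters, a prior count of 5, a fold change of at least 2 and assumed coefficients of variation of 0.1, 0.2 and 0.4 in edgeR's exact test.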

Additional observations from a re-analysis of the deposited data

Results flagged for a closer look

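Cd59a and Susd4, both membrane inhibitors of complement, were past the thresholds in opposite directions in the tissues, higher in the CLP + MLT kidney and lower in the CLP + MLT heart. The heart minus kidney difference of the log2 ratio was −1.41 for Cd59a and −3.24 for Susd4. Each tissue had 1 library per group, so this difference was not tested. In heart, Susd4 rested on 23 and 4 counts. The kidney call of Cd59a was lost with scaling by library size only, at 0.57. At a fold change of at least 2, the kidney calls of both genes and the heart call of Cd59a were also lost. At an assumed coefficient of variation of 0.4, neither gene was past the thresholds in kidney or heart.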

How the results depend on the processing

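No paired analysis was possible because each group had 1 library, and for the same reason no library could be left out. In kidney, scaling by library size only moved the median of all genes to −0.19. It turned the log2 ratios of C1qa to −0.10, C1qc to −0.11, C5ar1 to −0.12 and Serping1 to −0.17, took C1ra (−0.59), C7 (−0.72) and Cfi (−0.96) past the thresholds, ended the calls of Cd59a (0.57) and Cd59b (0.61) and raised the count of lower genes in the wider list from 3 to 6. In heart, Cd46 turned to 0.010 with library size only and 0.0029 with upper quartile factors. Upper quartile factors in kidney gave 1 higher complement gene, C1s1, at 0.59. At a fold change of at least 2, the wider list had 2 higher and 2 lower genes in kidney and 0 higher and 2 lower in heart, and 1 of the complement genes, C4b, was lower in heart. At an assumed coefficient of variation of 0.2, the wider list had 1 higher and 2 lower genes in kidney and 0 higher and 2 lower in heart, and the complement genes had 0 lower in heart. At 0.4, 0 genes of either group were past the thresholds in kidney or heart. With no filter on low counts, 3 heart genes of the wider list were higher instead of 1. C3 and C4b in kidney kept their call under every alternative except the coefficient of variation of 0.4. Cfb had 0 to 29 counts, which gave a wide interval in kidney and no ratio in heart.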

Other observations

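The neighbours of C4b and C3 on chromosome 17 were compared with them. Of the protein-coding genes within 100 kb of C4b that passed the filter, 8 in kidney had log2 ratios from −0.35 to 0.43, with a median of 0.19 and 0 past the thresholds, beside −1.80 for C4b. In heart the same window held 8 genes from −0.85 to 0.46, with a median of −0.37. Of these, Ppt2, Prrt1 and Fkbpl were lower past the thresholds, beside 8.78% of all heart genes. Near C3, 4 genes passed the filter in each tissue. Vav1, a signalling protein of blood cells, was higher in the CLP + MLT library in kidney (0.85) and in heart (0.70), and Tnfsf9 was lower in heart (−1.26). In kidney Tnfsf9 had a like ratio (−1.25) on 16 and 4 counts, which did not pass the thresholds. These genes were named after their values were seen.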
